A study of Homo sapiens with 30 samples.

Results

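The genes described here are 38 that fold proteins in the endoplasmic reticulum (ER), sense misfolded protein there or send it for destruction. They were taken by name from a list that was chosen with earlier results of these data known. Each of the 38 symbols matched 1 of the 60554 genes counted in the series. They fall into 7 sensors and transcription factors, 16 chaperones and folding enzymes, 11 degradation factors and 4 genes of translocation and the ER membrane. The last 4 are called translocation genes for short, although WFS1 among them is there as an ER membrane protein. Their messenger RNA was followed in T47D, an established human luminal breast cancer line that is rich in progesterone receptor. The series addresses how progestins restrain the growth of these cells and which part the transcription factor C/EBPa, encoded by CEBPA, takes in it. It holds 12 RNA-seq libraries in 6 groups of 2, and 18 chromatin immunoprecipitation samples that were not analysed here.

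Of the 8 libraries made after transfection, 4 received a control siRNA (siControl) and 4 an siRNA against CEBPA (siCEBPA). Each siRNA was studied without hormone (time label T0) and after the synthetic progestin R5020 at 10 nM (time label T360, no unit given). The titles call the hormone progesterone, and the protocol names R5020. All 8 had an arrest of 4 hours before hormone. No untreated library carried the label T360, so a change with hormone and a change with time cannot be told apart in these libraries. The remaining 4 libraries are labelled ICRF, 2 untreated and 2 with progestin, with no siRNA, arrest or time in the title. The labels do not spell the name out. It usually denotes a topoisomerase II inhibitor, and the design text mentions inhibition of Topo2a. Nothing in the labels says that the 2 libraries of a group came from separate cultures, so the p-values measure the spread between libraries, which may be technical. In bulk RNA, fewer cells that express a gene and less RNA per cell cannot be told apart.

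Secreted and membrane proteins enter the ER through the SEC61 channel, fold with the help of chaperones such as HSPA5 (BiP) and of protein disulfide isomerases, and leave for the Golgi once folded. When misfolded protein builds up, 3 sensors in the ER membrane respond. IRE1 (ERN1) splices the messenger RNA of XBP1 so that it encodes an active transcription factor, PERK (EIF2AK3) slows translation and favours ATF4, and ATF6 is cut in the Golgi to release a transcription factor. Proteins that fail to fold are marked by EDEM lectins, drawn out of the ER through the SEL1L and SYVN1 complex and degraded by the proteasome. Counts per gene do not separate spliced from unspliced XBP1, nor do they show the cleavage of ATF6 or the phosphorylation of any sensor.

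Total counts per library ran from 57364785 to 148624099, with siControl untreated replicate 2 the deepest. The 38 genes held 1.24% to 1.40% of the counts of a library. CEBPA, the target of the siRNA, read 47.7 and 54.4 CPM (read counts relative to the size of the library) in siControl untreated libraries and 10.7 and 12.1 in siCEBPA untreated ones, and 207 and 204 against 57.5 and 62.2 with progestin. All 8 luminal epithelial markers were above 1 CPM in every library, while the 3 blood and 2 endothelial markers were below 1 CPM in every library. Of 3 fibroblast markers, COL1A1 was present and the other 2 were below 1 CPM throughout. Of 4 basal markers, ACTA2 was above 1 CPM in every library and KRT14 below it in every library. KRT5 read 1.91 and 2.11 CPM in siCEBPA progestin and 1.72 and 1.79 in ICRF progestin libraries, and was below 1 CPM elsewhere. TP63 read 1.58 and 1.57 CPM in siCEBPA untreated libraries and was below 1 CPM elsewhere. CPM values here were scaled with trimmed mean of M values (TMM) factors over the 12 libraries.

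The best known control sequence of this gene group is the ER stress response element, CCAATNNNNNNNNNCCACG, with a second, shorter form, ATTGGNCCACG. Both were searched on both strands in RefSeq promoter windows (build GRCh38.p14) of 300 bases, 250 before and 50 after each start site. A window was found for 34 of the 38 genes. The others were PDIA3, DERL1, DERL3 and TRAM1. The first form occurred in 7 of the 34 genes (HSPA5, XBP1, CANX, CALR, HSP90B1, PDIA6 and CRELD2) and in 0.0916% of the 27305 genes in the table. The second occurred in 3 (HERPUD1, HYOU1 and SDF2L1) and in 0.0696% of all genes in the table. The stretches around the elements of 8 genes are shown because these genes hold the element and their levels are compared in the results. They read 5′ to 3′ on the strand named, in lower case, with the 2 parts of the element in capitals. Where the element lies on the opposite strand it appears as CGTGG before CCAAT or ATTGG.
HSPA5, chr9:125241371-125241429, - strand: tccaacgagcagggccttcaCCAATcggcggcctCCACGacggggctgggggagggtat
XBP1, chr22:28800583-28800641, - strand: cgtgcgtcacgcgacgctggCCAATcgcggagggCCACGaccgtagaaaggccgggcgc
CALR, chr19:12938364-12938422, + strand: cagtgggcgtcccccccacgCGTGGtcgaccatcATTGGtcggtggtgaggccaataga
HSP90B1, chr12:103930196-103930254, + strand: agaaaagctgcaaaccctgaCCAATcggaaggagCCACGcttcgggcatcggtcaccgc
HSP90B1, chr12:103930301-103930359, + strand: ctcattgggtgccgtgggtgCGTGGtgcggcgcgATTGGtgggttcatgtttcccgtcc
PDIA6, chr2:10812833-10812891, - strand: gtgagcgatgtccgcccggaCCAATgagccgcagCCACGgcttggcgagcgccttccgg
HERPUD1, chr16:56932005-56932055, + strand: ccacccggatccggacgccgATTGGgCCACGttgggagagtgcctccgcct
HYOU1, chr11:119057360-119057410, - strand: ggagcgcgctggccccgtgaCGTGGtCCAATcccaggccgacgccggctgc
HYOU1, chr11:119057254-119057304, - strand: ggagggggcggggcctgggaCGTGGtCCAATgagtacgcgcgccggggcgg
SDF2L1, chr22:21642094-21642144, + strand: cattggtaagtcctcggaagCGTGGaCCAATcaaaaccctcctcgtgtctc
HSP90B1 and HYOU1 each held the element at 2 places. The elements of CANX (chr5:179698778-179698796) and CRELD2 (chr22:49918554-49918572) are given by position alone. The core ACGTG, which can share letters with CCACG read on the opposite strand, was in the windows of 17 of the 34 genes and of 24.9% of all genes in the table. The C/EBP-ATF element TTGCATCA was in the window of HERPUD1 and of 1.08% of all genes in the table. A match is a run of letters and no evidence that a factor binds there.

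Per kilobase of counted exon, the abundant chaperones and XBP1 stood at the top of the group in siControl untreated cells. HSPA5, the central ER chaperone of the HSP70 family, had the highest level at 469 ± 42.7 CPM per kb (SD, n = 2). XBP1 followed with 429.6 ± 25.1, and these ranks did not differ beyond their spread. CANX (calnexin) and CALR (calreticulin), the lectin chaperones of glycoproteins, stood at 261 ± 0.811 and 259 ± 3.64 CPM per kb and were likewise within their spread. HSP90B1 (GRP94) had 247 ± 1.5 CPM per kb and P4HB, a protein disulfide isomerase, 195 ± 7.39. Of the degradation factors, OS9, a lectin that hands misfolded glycoproteins to the ubiquitin ligase complex, was highest at 68.9 ± 1.77 CPM per kb. The 3 sensors stood below the abundant chaperones but not below all of them. ATF6 stood at 14.9 ± 0.481, EIF2AK3 at 9.20 ± 0.181 and ERN1 at 3.29 ± 0.184 CPM per kb. At the bottom were CREB3L1, at 0.594 ± 0.0458, and DERL3, at 0.0529 ± 0.00548. DERL3, a member of the Derlin family, had 8 to 28 counts in a library, too few to resolve any change. In the order of levels, 11 of the 37 pairs of neighbours did not differ beyond their SDs.

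**Figure D1:**
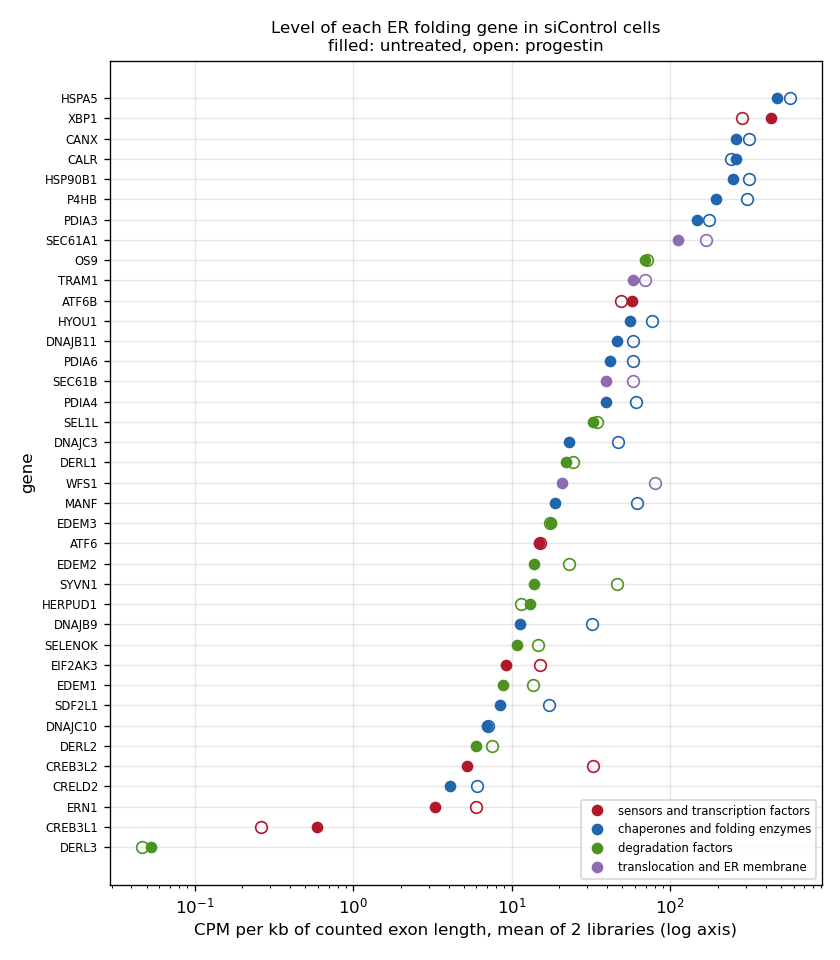
Level of the 38 genes in siControl cells as CPM per kb of counted exon (log axis), each point the mean of 2 libraries, filled for untreated and open for progestin, coloured by role. HSPA5 and XBP1 lead without hormone, XBP1 is the top gene whose open point lies left of its filled one, and CREB3L2, SYVN1 and WFS1 have open points far to the right.

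Progestin raised most of the group in siControl cells. Of the 38 genes 27 rose and 5 fell at an adjusted p under 0.05 (84.2% called), against 58.5% of all 18351 genes tested, 29.2% higher and 29.3% lower. The group is well expressed, with 35 of the 38 genes at 10 CPM or more in every library. Testing only the 13363 genes with a mean of at least 1 CPM gave 4617 higher and 4659 lower. That share is above the one of all genes and below the group's. The median log2 fold change was 0.38 for the group and -0.03 over all genes tested. The rise ran through the chaperones (14 of 16 rose), the translocation genes (4 of 4) and 6 of 11 degradation factors, while the sensors and transcription factors were split, with 3 higher and 3 lower. The group's median stayed positive under the other scalings, at 0.27 by upper quartile scaling and 0.23 without scaling factors, while the share of all calls that were higher went from 49.97% to 38.2% and 33.9%. Without scaling factors 25 genes rose and 9 fell. In each of the 32 called genes the libraries of the 2 groups did not overlap. The call itself makes that likely, and the share over all genes was not counted. All adjusted p-values are from edgeR's quasi-likelihood test with Benjamini-Hochberg adjustment over all genes tested, and errors of log2 fold changes are standard errors.

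Among the sensors and transcription factors, CREB3L2, a membrane-bound transcription factor related to ATF6 that promotes secretory capacity, had the largest rise of the group. It read 46.6 and 45.0 CPM in untreated and 292 and 283 in progestin libraries, a 6.24-fold rise (log2 fold change 2.64 ± 0.04, adjusted p = 1.92e-16). ERN1 went from 34.4 and 37.2 to 64.8 and 64.4 CPM (0.84 ± 0.06, adjusted p = 2.31e-09). EIF2AK3 went from 50.7 and 49.3 to 83.6 and 81.0 CPM (0.71 ± 0.05, adjusted p = 1.05e-08). In these 3 genes both progestin libraries lay well above both untreated ones, and the libraries of a group lay close together. XBP1, the substrate of ERN1, went the other way, from 1354 and 1247 to 861 and 849.6 CPM (-0.62 ± 0.04, adjusted p = 5.22e-09). CREB3L1, a relative of CREB3L2 also known as OASIS, was scarce and fell from 2.27 and 2.53 to 1.18 and 0.930 CPM (-1.20 ± 0.20, adjusted p = 7.52e-05). ATF6B, a close relative of ATF6, fell by less, from 204 and 215 to 181 and 178 CPM (-0.24 ± 0.05). ATF6 itself stood at 115 and 120.1 and at 118 and 121 CPM, and its groups overlapped (0.02 ± 0.04, adjusted p = 0.773). So 2 of the 3 stress sensors rose, the third did not pass the test, and the transcription factors moved in both directions.

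The chaperones with the largest rises were not the most abundant ones. MANF, a secreted protein of the ER that binds HSPA5, went from 39.7 and 39.0 to 136 and 125 CPM, a 3.29-fold rise (1.72 ± 0.05, adjusted p = 1.91e-13). DNAJB9 (ERdj4), a co-chaperone that recruits HSPA5 to clients and to IRE1, went from 30.2 and 33.6 to 89.0 and 92.2 CPM (1.49 ± 0.06, adjusted p = 3.02e-12). DNAJC3 (p58IPK), a co-chaperone and inhibitor of PERK, went from 130.0 and 128 to 266 and 261 CPM (1.02 ± 0.04, adjusted p = 3.08e-12). Treated and untreated libraries of these 3 genes lay far apart. SDF2L1, a partner of DNAJB11 in the BiP cycle, went from 8.60 and 10.1 to 18.1 and 19.8 CPM (0.999 ± 0.10, adjusted p = 3.29e-07). HSPA5 itself read 1713 and 1949 CPM untreated and 2251 and 2178 with progestin (0.26 ± 0.05, adjusted p = 0.000625), a small rise whose call was lost without scaling factors (0.26 became 0.11). The oxidoreductases P4HB (0.63 ± 0.04), PDIA4 (0.61 ± 0.04), PDIA6 (0.47 ± 0.04) and PDIA3 (0.25 ± 0.04) also rose, as did CRELD2 (0.55 ± 0.07), HYOU1, the nucleotide exchange factor of HSPA5 (0.45 ± 0.05), DNAJB11 (0.34 ± 0.04), HSP90B1 (0.33 ± 0.04) and CANX (0.26 ± 0.04). CALR was the chaperone that fell, from 696 and 709.6 to 656 and 658 CPM (-0.11 ± 0.04, adjusted p = 0.016). That call was lost without siControl untreated replicate 2 and without either siControl progestin library. DNAJC10, a reductase that prepares clients for degradation, did not pass the test (0.02 ± 0.04, adjusted p = 0.687).

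Among the degradation factors the ubiquitin ligase stood out. SYVN1 (HRD1), the ligase of the main ER degradation complex, went from 72.9 and 78.2 to 255 and 253 CPM, a 3.33-fold rise (1.73 ± 0.05, adjusted p = 8.57e-14). Its partner SEL1L, which anchors the complex, stood at 308 and 312 and at 333 and 328 CPM and missed the threshold (0.08 ± 0.04, adjusted p = 0.0829). EDEM2 and EDEM1, which trim mannose from misfolded glycoproteins, rose while EDEM3, of the same family, did not pass. EDEM2 went from 26.2 and 27.0 to 43.9 and 44.6 CPM (0.72 ± 0.06, adjusted p = 1.47e-08). EDEM1 went from 59.9 and 60.1 to 90.5 and 94.3 CPM (0.61 ± 0.05, adjusted p = 1.51e-08), and EDEM3 had a log2 fold change of -0.05 ± 0.04 (adjusted p = 0.386). SELENOK, a selenoprotein of the same membrane, went from 23.7 and 23.4 to 31.7 and 31.9 CPM (0.42 ± 0.06, adjusted p = 1.33e-05). Treated libraries lay above untreated ones in each of the genes said to rise. DERL2 rose by 0.33 ± 0.07 and DERL1 by 0.12 ± 0.04 on the log2 scale, the latter with a call that was lost without siControl untreated replicate 2 and without siControl progestin replicate 1 or 2. HERPUD1, a membrane protein that supports the ligase complex, fell from 62.9 and 70.8 to 57.6 and 61.2 CPM (-0.19 ± 0.06, adjusted p = 0.0164). Without siControl untreated replicate 2, the deepest library, that fall was -0.09 and lost its call, and without siControl progestin replicate 1 it was -0.13 and lost it too.

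All 4 genes of translocation and the ER membrane rose. WFS1 (wolframin), an ER membrane protein mutated in Wolfram syndrome, went from 89.9 and 96.7 to 359.5 and 365 CPM, a 3.85-fold rise (1.94 ± 0.07, adjusted p = 5.78e-10). SEC61A1 and SEC61B, subunits of the translocation channel, rose by nearly the same amount. SEC61A1 went from 520.3 and 539 to 799 and 789 CPM (0.57 ± 0.04, adjusted p = 2.23e-09). SEC61B went from 45.6 and 48.6 to 70.2 and 69.1 CPM (0.55 ± 0.05, adjusted p = 2.18e-07). TRAM1, which assists the channel, went from 225 and 223 to 263 and 277 CPM (0.25 ± 0.04, adjusted p = 4.47e-05). No treated library of these genes fell within the untreated range.

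**Figure D2:**
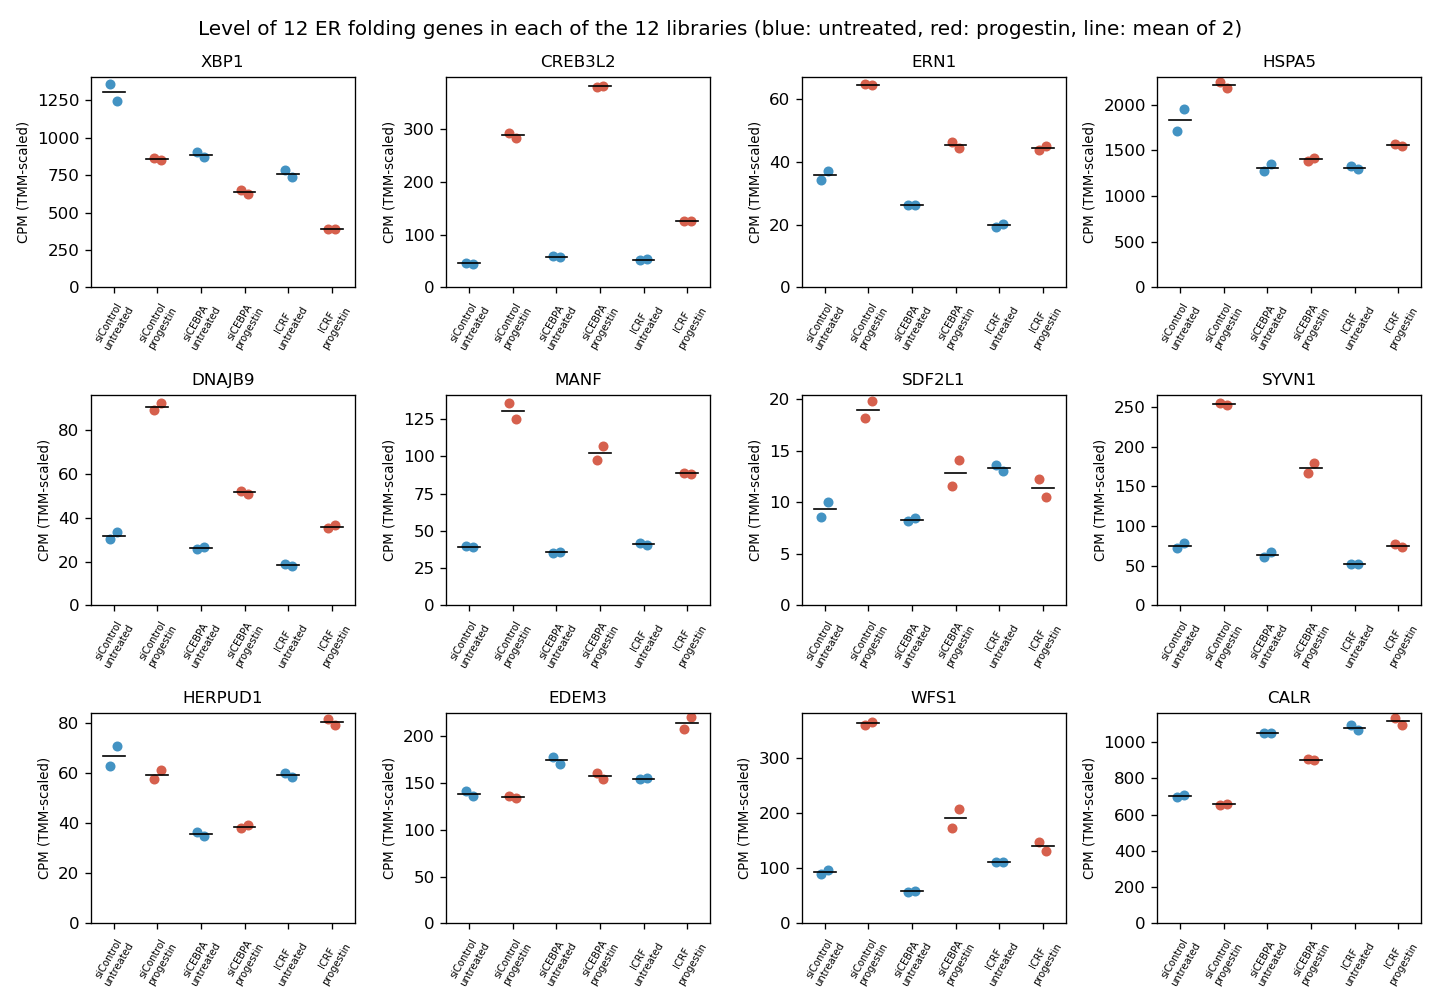
CPM of 12 of the genes in each of the 12 libraries, blue for untreated and red for progestin, with a line at the mean of 2; each panel has its own linear axis from 0. CREB3L2, MANF, SYVN1 and WFS1 rise with progestin in all 3 settings, XBP1 falls in all 3, and SDF2L1 rises with either siRNA and falls in ICRF cells.

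Other genes of the same pathway, from lists that were also chosen with results known, moved in the same setting. Of 35 genes of entry, oxidation and glycan processing 30 rose and 1 fell (median log2 fold change 0.29), among them FKBP14, a prolyl isomerase of the ER (1.10 ± 0.07), SEC62, a helper of the translocation channel (0.58 ± 0.04), and SSR1 of the translocon-associated complex (0.56 ± 0.04). Of 20 other degradation genes 10 rose and 2 fell (60% called), a share near the 58.5% of all genes. The ligase gene MARCHF6 (0.88 ± 0.04) and SELENOS (0.84 ± 0.04) rose. MBTPS1, the protease that cuts ATF6, rose (0.64 ± 0.04), and CREB3L4 fell (-0.64 ± 0.05). The list of genes at or downstream of the PERK branch showed the opposite balance, with 1 of 7 higher and 5 lower (median -0.38). PPP1R15A, which restores translation after PERK, went from 24.1 and 24.7 to 9.69 and 10.3 CPM (-1.30 ± 0.07), and ATF4, the transcription factor of that branch, from 359 and 404 to 246 and 241 CPM (-0.66 ± 0.05). Both progestin libraries lay below both untreated ones for these 2 genes, whereas EIF2S1, the substrate of PERK, rose by 0.26 ± 0.04. Among the 10 genes with either promoter element 7 rose and 3 fell (median 0.30), and among the 24 with a window but neither element 17 rose and 2 fell (median 0.59).

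With CEBPA siRNA progestin again raised more of the group than it lowered, and 11 genes had a lower response than in siControl cells by the test of the difference. In siCEBPA cells 20 of the 38 genes rose and 6 fell (68.4% called), against 58.2% of all genes, 29.9% higher and 28.4% lower. Of the 13363 genes with a mean of at least 1 CPM 4657 were higher and 4478 lower, about the group's share called. The share called therefore did not set the group apart from expressed genes, which had no such balance of rises over falls. The group's median was 0.17 and that of all genes -0.03. By upper quartile scaling the group's median was 0.03 and without scaling factors -0.00062, and the share of all calls that were higher went from 51.3% to 36.9% and 33.3%. Without scaling factors 15 genes rose and 12 fell. The siControl and siCEBPA responses share no library. Of the 32 genes called in siControl and the 26 called in siCEBPA cells 20 were higher in both and 4 lower in both. The share of all genes called alike in both was not counted, so this agreement cannot be called particular to the group. The chaperones had 10 higher and 2 lower, the degradation factors 4 and 1, the translocation genes 3 higher, and the sensors 3 and 3 again.

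CREB3L2 went from 58.8 and 57.1 to 379.8 and 381 CPM in siCEBPA cells (2.71 ± 0.04, adjusted p = 1.39e-16), again the largest rise of the group. ERN1 went from 26.5 and 26.2 to 46.3 and 44.4 CPM (0.78 ± 0.06) and CREB3L1 from 2.22 and 2.67 to 0.655 and 0.990 (-1.59 ± 0.21). XBP1 fell from 902 and 871 to 649 and 624 CPM (-0.49 ± 0.04, adjusted p = 1.06e-07). In all 4 genes treated and untreated libraries were apart, with XBP1 and CREB3L1 low after hormone. MANF went from 35.4 and 36.1 to 97.7 and 107 CPM (1.51 ± 0.06), DNAJB9 from 25.6 and 26.8 to 52.1 and 51.0 (0.97 ± 0.06), and DNAJC3 from 140.3 and 136 to 245 and 236 (0.79 ± 0.04). SDF2L1 went from 8.14 and 8.5 to 11.5 and 14.1 CPM (0.61 ± 0.10, adjusted p = 0.000121). These co-chaperones rose with either siRNA. HSPA5 did not pass the test here, at 1271 and 1353 CPM untreated and 1383 and 1417 with progestin (0.09 ± 0.05, adjusted p = 0.184). The HSPA5 responses in siControl and siCEBPA cells did not differ past the threshold by the test of the difference. SYVN1 went from 61.4 and 66.9 to 167 and 179 CPM (1.43 ± 0.05), EDEM2 from 24.1 and 24.9 to 32.2 and 32.5 (0.39 ± 0.06), and EDEM1 from 51.8 and 50.3 to 60.9 and 58.8 (0.22 ± 0.05). SELENOK went from 20.6 and 21.0 to 23.7 and 23.6 CPM (0.17 ± 0.06), and that call was lost without siCEBPA untreated replicate 1 or 2 and without siCEBPA progestin replicate 1. WFS1 went from 56.3 and 59.4 to 173 and 208 CPM (1.71 ± 0.07), SEC61B from 41.0 and 38.9 to 54.8 and 53.6 (0.43 ± 0.05), and SEC61A1 from 473 and 487 to 628 and 654 (0.41 ± 0.04). In each of these 7 genes the treated libraries were the higher ones. The falls, besides XBP1 and CREB3L1, were ATF6B (-0.18 ± 0.05), CALR (-0.23 ± 0.04), EDEM3 (-0.15 ± 0.04) and DNAJC10 (-0.14 ± 0.04). ATF6B lost its call without siCEBPA untreated replicate 2, DNAJC10 without that library or siCEBPA progestin replicate 2, and EDEM3 without siCEBPA untreated replicate 1 or siCEBPA progestin replicate 2.

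The difference between the 2 responses was tested as an interaction of hormone and siRNA. It was negative and past the threshold for 11 of the 38 genes, a response lower in siCEBPA than in siControl cells (28.9% called), against 7.24% of all genes called in either direction, 3.06% lower and 4.19% higher. The median difference was -0.19 for the group and 0.02 for all genes. With the replicate number as a block, more of the 38 genes passed with a lower response, as the closing section gives. In the edgeR fit described, 0 of the 38 had a higher response in siCEBPA cells at the adjusted threshold and 1 at an unadjusted p under 0.05. The count at the adjusted threshold was 1 by DESeq2, and also 1 by edgeR with no filter beyond 1 count, with all 12 libraries in the fit, or without siControl untreated replicate 1. The 11 were EIF2AK3, 6 chaperones (DNAJB9, PDIA4, PDIA6, HSP90B1, P4HB and DNAJC3), 3 degradation factors (EDEM1, EDEM2 and SYVN1) and TRAM1.

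The largest of these differences was that of DNAJB9, -0.52 ± 0.08 on the log2 scale (adjusted p = 0.00103), from a response of 1.49 to one of 0.97. EDEM1 differed by -0.39 ± 0.07 (adjusted p = 0.00201). PDIA4 stood at 128 and 132 and then 205 and 196 CPM in siControl cells and at 125 and 128 and then 146 and 154 CPM in siCEBPA cells, a difference of -0.37 ± 0.06 (adjusted p = 0.00107). Both PDIA4 responses were rises, the one in siControl cells the larger. PDIA6 stood at 174 and 169 and then 241 and 238 CPM in siControl cells and at 174 and 174 and then 202 and 198 in siCEBPA cells (-0.28 ± 0.05, adjusted p = 0.00437). HSP90B1 stood at 1164 and 1154 and then 1503 and 1439 CPM in siControl cells and at 1355 and 1382 and then 1450.2 and 1420.1 in siCEBPA cells (-0.27 ± 0.05, adjusted p = 0.00515). With progestin the HSP90B1 levels of the 2 siRNA groups were close, and its untreated level was the higher one with CEBPA siRNA. These 5 calls were kept in every setting tried. P4HB (-0.27 ± 0.06) lost its call without siControl progestin replicate 1. SYVN1 (-0.31 ± 0.07) and EDEM2 (-0.33 ± 0.08) each lost theirs without siControl untreated replicate 1, siCEBPA untreated replicate 2 or either siControl progestin library. EIF2AK3 (-0.32 ± 0.08) lost it without replicate 2 of siControl untreated, siCEBPA untreated or siCEBPA progestin, or without either siControl progestin library. DNAJC3 (-0.23 ± 0.06) lost it without siControl untreated replicate 2, siCEBPA untreated replicate 1, siCEBPA progestin replicate 2 or either siControl progestin library, and TRAM1 (-0.20 ± 0.06) without any 1 of the 8. The whole count fell from 11 to 5 without siControl progestin replicate 1 and to 6 without siControl progestin replicate 2. The interaction of CREB3L2 was 0.07 ± 0.06, that of XBP1 0.13 ± 0.06, that of MANF -0.21 ± 0.08 and that of HYOU1 0.02 ± 0.07, none of them past the threshold. CEBPA itself rose with progestin in siCEBPA cells too, from 10.7 and 12.1 to 57.5 and 62.2 CPM. In the list of the PERK branch 2 of 7 genes had a higher response in siCEBPA cells, ATF3 (0.73 ± 0.11) and ATF4 (0.28 ± 0.07).

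**Figure D3:**
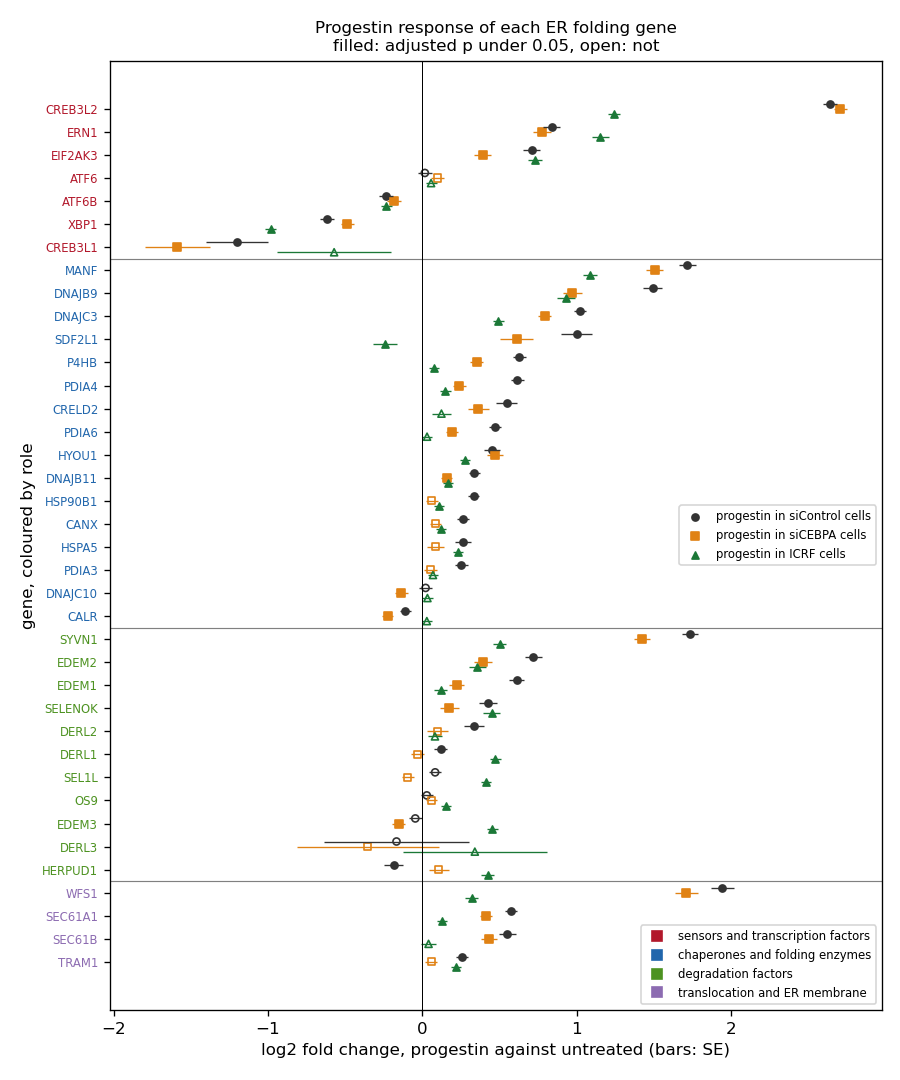
Log2 fold change with progestin of each gene in siControl cells (circles), siCEBPA cells (squares) and ICRF cells (triangles), with standard errors, grouped by role; filled symbols passed an adjusted p of 0.05. Most chaperones have the circle to the right of the square and the triangle, and DERL1, SEL1L, EDEM3 and HERPUD1 have the triangle on the right.

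Without hormone, members differed in both directions with CEBPA siRNA, and which direction had more of them depended on the scaling. Of the 38 genes 9 were higher and 16 lower in siCEBPA than in siControl cells (65.8% called), against 46.6% of all genes, 22.6% higher and 24.0% lower. The median was -0.12 for the group and 0.01 for all genes. Without scaling factors the group's median was -0.02, and the share of all calls that were higher went from 48.5% to 65.3%. In that setting 12 of the 38 were higher and 10 lower. The sensors had 2 higher and 3 lower, the chaperones 6 and 4, the degradation factors 1 and 5, and all 4 translocation genes were lower. No called gene had overlapping libraries, which the call itself makes likely and which was not counted over all genes. The summed level of the 8 luminal markers lay between 7776 and 8230 CPM in siControl untreated and between 6695 and 6726 CPM in siCEBPA untreated libraries, and its part in these values was not tested.

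HERPUD1 had the largest difference, 62.9 and 70.8 CPM in siControl against 36.3 and 35.0 in siCEBPA libraries (-0.90 ± 0.06, adjusted p = 1.32e-08). HYOU1 read 403 and 451 against 268 and 280.5 CPM (-0.63 ± 0.05, adjusted p = 1.11e-07). HSPA5 read 1713 and 1949 against 1271 and 1353 CPM (-0.47 ± 0.05, adjusted p = 4.72e-06). All siCEBPA libraries of these 3 lay below the siControl ones. CALR was higher, with 696 and 709.6 against 1053 and 1049.9 CPM (0.59 ± 0.04, adjusted p = 3.19e-09). In the ICRF untreated libraries, whose labels name no siRNA, the levels went either way, and the split differed by role. HSPA5 read 1328 and 1294, HYOU1 289 and 292 and CALR 1093 and 1069 CPM, nearer the siCEBPA levels. The ICRF untreated means of P4HB (1605 CPM), HSP90B1 (1371) and PDIA3 (775) were also nearer the siCEBPA ones. So were those of XBP1 (760), ERN1 (19.8), EIF2AK3 (41.6), ATF6 (152) and CREB3L2 (52.7). HERPUD1 read 60.1 and 58.7, SEL1L 324 and 317 and WFS1 111 and 110 CPM, nearer the siControl levels. The means of SEC61B (50.3 CPM) and TRAM1 (283) were nearer the siControl ones too, and those of SYVN1 (52.7) and SEC61A1 (480) nearer the siCEBPA ones. What sets these levels apart was not tested. Of the 10 genes with either promoter element 2 were higher and 4 lower with CEBPA siRNA, and of the 24 with neither 6 were higher and 11 lower. The median log2 fold changes of the 2 sets were -0.126 and -0.130. Of all genes 22.6% were higher and 24.0% lower. P4HB read 1005 and 1061 against 1245 and 1259 CPM (0.29 ± 0.04), and HSP90B1 (0.25 ± 0.04) and PDIA3 (0.25 ± 0.04) were also higher with CEBPA siRNA. XBP1 (-0.54 ± 0.04, adjusted p = 7.94e-08), ERN1 (-0.43 ± 0.06) and EIF2AK3 (-0.29 ± 0.05) were lower, and CREB3L2 (0.35 ± 0.04) and ATF6 (0.28 ± 0.04) were higher. SEL1L read 308 and 312 against 246 and 243 CPM (-0.33 ± 0.04, adjusted p = 4.57e-06), and EDEM3 141 and 136 against 178 and 170.3 (0.34 ± 0.04, adjusted p = 9.89e-06). SEL1L was low and EDEM3 high with CEBPA siRNA in both libraries. SYVN1 had a difference of -0.23 ± 0.05, WFS1 of -0.68 ± 0.07, SEC61B of -0.23 ± 0.05, TRAM1 of -0.18 ± 0.04 and SEC61A1 of -0.13 ± 0.04. The call of SEC61A1 was lost without siControl untreated replicate 2 and without siCEBPA untreated replicate 1.

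With progestin, 4 of the 38 genes were higher and 26 lower in siCEBPA than in siControl cells (78.9% called), against 44.6% of all genes, 22.5% higher and 22.1% lower. The median was -0.34 for the group and 0.02 for all genes. Without scaling factors the group's median was -0.26, and the share of all calls that were higher went from 50.5% to 64.9%, with 7 members higher and 24 lower. Of the chaperones 11 were lower and CALR was higher, and of the degradation factors 8 were lower and EDEM3 was higher. All 4 translocation genes were lower again. The untreated and treated comparisons of the siRNAs share no library. Of the 25 and 30 genes called in them 4 were higher in both and 16 lower in both, a share not counted over all genes. DNAJC3 had opposite calls (0.11 ± 0.04 untreated and -0.12 ± 0.04 with progestin). The untreated call of DNAJC3 was lost without either siControl untreated library or siCEBPA untreated replicate 1, and the treated one without either siControl progestin library or siCEBPA progestin replicate 2.

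WFS1 had the largest difference with progestin (-0.91 ± 0.07, adjusted p = 1.14e-06), followed by DNAJB9 (-0.80 ± 0.06, adjusted p = 2.72e-08) and HSPA5 (-0.65 ± 0.05, adjusted p = 2.03e-07). HYOU1 read 606 and 573 CPM in siControl and 373 and 390.2 in siCEBPA libraries (-0.61 ± 0.05). EDEM1 (-0.61 ± 0.05), EIF2AK3 (-0.61 ± 0.05) and HERPUD1 (-0.60 ± 0.06) differed by about as much. In the treated libraries, too, each of these genes was low in both siCEBPA libraries. SDF2L1 differed by -0.55 ± 0.10, SYVN1 by -0.54 ± 0.05 and SEL1L by -0.51 ± 0.04, with ERN1 at -0.50 ± 0.06 and XBP1 at -0.41 ± 0.04. The translocation genes SEC61A1 (-0.29 ± 0.04), SEC61B (-0.35 ± 0.05) and TRAM1 (-0.38 ± 0.04) were lower by similar amounts. The genes that were higher were CALR, with 656 and 658 against 907 and 901 CPM (0.48 ± 0.04), CREB3L2 (0.42 ± 0.04), ATF6 (0.36 ± 0.04) and EDEM3 (0.23 ± 0.04).

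Among the other genes of the pathway, 12 of 35 genes of entry, oxidation and glycan processing were lower and 6 higher without hormone (51.4% called, against 46.6% of all genes), and 19 lower and 5 higher with it (68.6%, against 44.6%). GANAB, the catalytic subunit of glucosidase II, was the gene of that list with the smallest p in both, at 318 and 317 against 682 and 692 CPM without hormone (1.12 ± 0.04) and 359 and 354 against 755 and 759 with it (1.10 ± 0.04). It was high in all 4 siCEBPA libraries. The ICRF libraries, whose labels name no siRNA, read 760.3 and 746 CPM untreated and 774 and 757 with progestin. What sets these levels apart was not tested. ERO1A, the oxidase that recharges the disulfide isomerases, was higher (0.74 ± 0.05 without and 0.70 ± 0.05 with hormone) and its relative ERO1B lower (-0.66 ± 0.07 and -0.75 ± 0.07). Of the PERK branch 5 of 7 genes were lower without hormone, with ATF4 at -0.78 ± 0.05, DDIT3, which encodes CHOP, at -0.73 ± 0.07 and TRIB3 at -0.67 ± 0.09. With hormone 4 were lower and 1 higher.

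**Figure D4:**
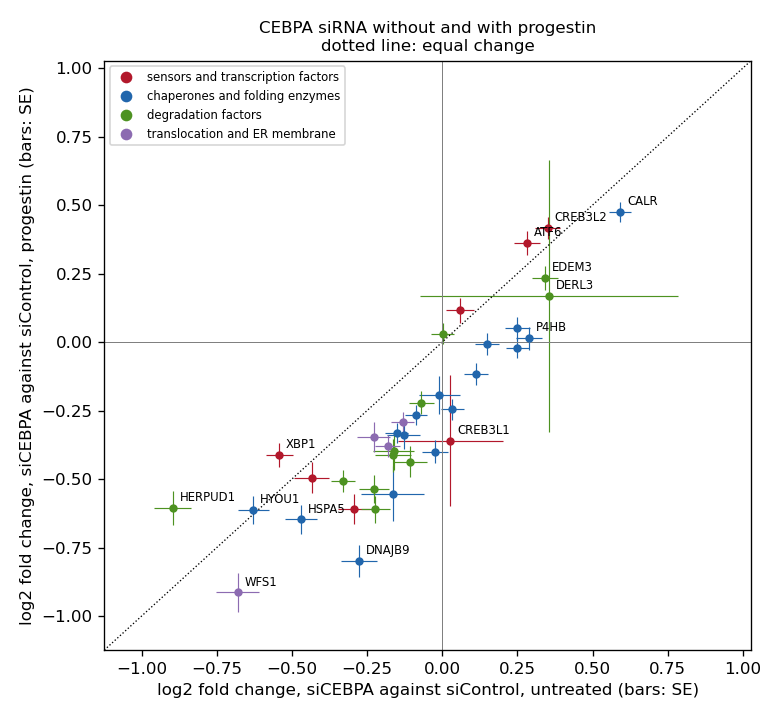
Log2 fold change of siCEBPA against siControl for each of the 38 genes, untreated on the x axis and with progestin on the y axis, with standard errors and a dotted line where both are equal. HERPUD1, HYOU1, HSPA5, WFS1 and XBP1 are low in both, CALR is high in both, and most of the points lie below the line.

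In ICRF cells progestin raised 25 of the 38 genes and lowered 3 (73.7% called), against 61.4% of all 18556 genes tested, 31.3% higher and 30.0% lower. Of the 13245 genes with a mean of at least 1 CPM 4903 were higher and 5002 lower, about the group's share called. The share called therefore did not set the group apart from expressed genes, which had no such balance of rises over falls. The median was 0.16 for the group and -0.01 for all genes. Of the degradation factors 9 of 11 rose, of the chaperones 10 of 16, of the translocation genes 3 of 4, and the sensors had 3 higher and 2 lower. No called gene had overlapping libraries, which the call itself makes likely and which was not counted over all genes. The summed level of the 8 luminal markers lay between 9775 and 9832 CPM in ICRF untreated libraries and between 4341 and 4587 with progestin. In siControl progestin libraries it lay between 8082 and 8731 CPM, but that sum hides opposite changes. With progestin in siControl cells 5 of the 8 markers fell and 1 rose (75% called, against 58.5% of all genes). There FOXA1 went from a mean of 441 to 73.1 CPM, and KRT19 from 2305 to 4255. In ICRF cells all 8 fell. The 3 fibroblast markers summed to between 25.7 and 30.3 CPM in the ICRF libraries and to between 56.1 and 69.5 in the siRNA libraries, nearly all of it COL1A1. The part of these markers in the values of ICRF cells was not tested.

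CREB3L2 went from 51.4 and 53.9 to 126 and 125 CPM (1.24 ± 0.04, adjusted p = 1.54e-28) and ERN1 from 19.4 and 20.2 to 43.8 and 45.1 (1.15 ± 0.05, adjusted p = 9.45e-23). EIF2AK3 went from 42.2 and 41.1 to 70.1 and 69.5 CPM (0.73 ± 0.04). XBP1 fell from 781 and 739 to 389.7 and 388 CPM (-0.98 ± 0.03, adjusted p = 4.77e-28). Thus both sensors named here were higher and XBP1 lower in the treated libraries, and ATF6B also fell (-0.23 ± 0.04). MANF went from 42.2 and 40.3 to 88.9 and 88.1 CPM (1.09 ± 0.04), DNAJB9 from 19.1 and 18.1 to 35.2 and 36.6 (0.93 ± 0.06), and DNAJC3 from 155 and 155 to 218 and 222 (0.49 ± 0.03). HYOU1 went from 289 and 292 to 362 and 350.4 CPM (0.28 ± 0.03) and HSPA5 from 1328 and 1294 to 1566 and 1543 (0.23 ± 0.03, adjusted p = 2.64e-08). In these chaperones both treated libraries were high. SDF2L1 was the chaperone that fell, from 13.6 and 13.0 to 12.2 and 10.5 CPM (-0.24 ± 0.08, adjusted p = 0.00611), and that call was lost without ICRF untreated replicate 1, without ICRF progestin replicate 2 and by DESeq2.

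The degradation factors that rose in ICRF cells included SEL1L, EDEM3 and OS9, which did not pass the test in siControl cells, and HERPUD1, which fell there. DERL1, part of a channel for misfolded proteins, went from 166 and 162 to 232 and 228 CPM (0.47 ± 0.03, adjusted p = 2.73e-16). EDEM3 went from 154 and 155 to 208 and 220.4 CPM (0.45 ± 0.04, adjusted p = 4.14e-15). SEL1L went from 324 and 317 to 429 and 433 CPM (0.41 ± 0.03, adjusted p = 4.98e-15). Each of the 3 was high in both treated libraries. HERPUD1 went from 60.1 and 58.7 to 81.7 and 79.2 CPM (0.42 ± 0.04, adjusted p = 4.88e-12), SYVN1 from 52.5 and 52.8 to 77.1 and 73.6 (0.50 ± 0.04), and SELENOK from 28.5 and 27.1 to 38.1 and 38.5 (0.45 ± 0.05). WFS1 went from 111 and 110.4 to 148 and 132 CPM (0.32 ± 0.04), TRAM1 from 289.8 and 275 to 329.5 and 335 (0.22 ± 0.03), and SEC61A1 from 484 and 476 to 543 and 517 (0.13 ± 0.03). These 6 rose as well, each with both treated libraries above the untreated ones.

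The siControl and ICRF responses share no library, and 32 and 28 genes were called in them. Of the 38 genes 21 were higher in both and 2 lower in both. SDF2L1 and HERPUD1 were the 2 called in opposite directions. The share of all genes called alike in both was not counted. The siControl labels give an siRNA, an arrest and a time, and the ICRF labels give none of these. The difference of the 2 responses, ICRF minus siControl, cannot be told apart from a difference in any of them. It was past the threshold for 29 genes, 7 higher and 22 lower (76.3% called), against 48.9% of all 19003 genes tested, 24.9% higher and 24.0% lower. The median was -0.18 for the group and 0.02 for all genes. Without scaling factors the group's median was -0.02, and the share of all calls that were higher went from 50.9% to 65.2%, with 11 members higher and 16 lower. By role the signs split. Of the chaperones 13 had the lower response in ICRF cells and 1 the higher, and of the translocation genes 3 the lower, while of the degradation factors 5 had the higher and 4 the lower.

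The lower responses in ICRF cells were led by WFS1 (-1.62 ± 0.11, adjusted p = 3.53e-07), CREB3L2 (-1.40 ± 0.05, adjusted p = 3.41e-14), SDF2L1 (-1.24 ± 0.14, adjusted p = 3.39e-07) and SYVN1 (-1.23 ± 0.07, adjusted p = 6.32e-12). Except for SDF2L1, the progestin response of these genes was a rise in both settings, of unequal size. MANF (-0.63 ± 0.07), DNAJB9 (-0.56 ± 0.08), P4HB (-0.55 ± 0.06), DNAJC3 (-0.53 ± 0.05) and SEC61B (-0.51 ± 0.07) followed. XBP1 fell further in ICRF than in siControl cells (-0.36 ± 0.06, adjusted p = 1.87e-05). The higher responses in ICRF cells were those of HERPUD1 (0.61 ± 0.08, adjusted p = 7.14e-07), EDEM3 (0.50 ± 0.06), DERL1 (0.36 ± 0.05), SEL1L (0.33 ± 0.05), ERN1 (0.32 ± 0.07), CALR (0.14 ± 0.05) and OS9 (0.13 ± 0.05). The call of CALR was lost without either ICRF progestin library or replicate 2 of ICRF untreated or siControl untreated, and that of OS9 without any ICRF library or replicate 2 of either siControl group. HYOU1 (-0.17 ± 0.07) lost its call without either ICRF untreated library or replicate 1 of either siControl group. DERL2 (-0.25 ± 0.08) lost it without ICRF untreated replicate 1 or replicate 2 of either siControl group. PDIA3 (-0.18 ± 0.05) lost it without ICRF untreated replicate 1 or siControl progestin replicate 1, and CANX (-0.14 ± 0.05) without ICRF untreated replicate 1. EIF2AK3 (0.03 ± 0.07) and HSPA5 (-0.03 ± 0.07) showed no difference past the threshold, with standard errors of the same size as for the called genes.

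**Figure D5:**
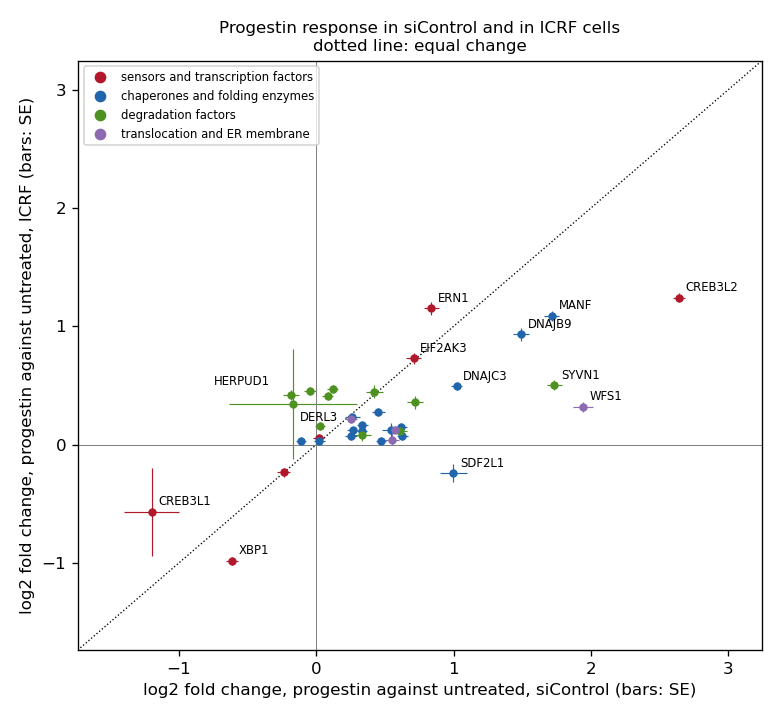
Log2 fold change with progestin of each of the 38 genes in siControl cells (x axis) and in ICRF cells (y axis), with standard errors and a dotted line of equal change. CREB3L2, WFS1, SYVN1, MANF and SDF2L1 lie below the line, and HERPUD1, ERN1 and several degradation factors above it.

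Of the other pathway genes, 14 of 35 entry, oxidation and glycan genes rose with progestin in ICRF cells and 4 fell (51.4% called, against 61.4% of all genes). In the difference from siControl cells 24 of the 35 had a lower response and 2 a higher one (74.3% called, against 48.9%). PPIB, a prolyl isomerase, was at 319 and 314 and then 315 and 305 CPM in ICRF cells and at 282 and 285 and then 429.8 and 409.7 in siControl cells (-0.60 ± 0.05). The siControl libraries of PPIB were apart by treatment and the ICRF ones overlapped. In siCEBPA cells PPIB read 293 and 278 and then 361 and 354 CPM, also apart. MARCHF6 rose in ICRF cells too (0.92 ± 0.04), and FAM8A1, a component of the SYVN1 complex, went from 89.4 and 91.1 to 152 and 161 CPM (0.78 ± 0.04). The response of FAM8A1 exceeded that in siControl cells by 0.82 ± 0.06. Of the PERK branch 6 of 7 genes fell and 1 rose. PPP1R15B, which restores translation as PPP1R15A does, rose from 142 and 138 to 263 and 269.9 CPM (0.91 ± 0.03), and TRIB3 (-0.71 ± 0.04) and PPP1R15A (-0.60 ± 0.06) fell.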

How the data were processed

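The deposited files give, for each gene, the number of read pairs assigned to it, with no scaling. Per the file headers, the authors made these counts with featureCounts 1.5.1 in paired, reverse-strand mode on GENCODE 24 and hg38. Trimmomatic and STAR are named in the submitters' processing notes, without versions. The recorded command, per the file headers, has no setting for multiply aligned reads, so near-identical gene copies may be miscounted.

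Symbols were matched for 56558 of 60554 genes. Counts were tested with edgeR 4.0.16 (limma 3.58.1, R 4.3.3) after filterByExpr and TMM scaling, by glmQLFit with robust estimation and glmQLFTest, with Benjamini-Hochberg adjustment over all genes and a threshold of 0.05. The siRNA comparisons came from a fit of 8 libraries (18351 genes, 4 residual degrees of freedom), the ICRF response from 4 (18556 genes, 2) and the ICRF difference from all 12 (19003 genes, 6). DESeq2 1.42.0, other scalings, filters, library sets and leaving out each library were alternatives. The steps were tested on simulated counts. Every gene of the group may be named, and values per library are given for up to 4 called genes of each role with the largest change, XBP1, HSPA5 and genes that a comparison of theirs needs. Other pathway genes named are among the 3 with the smallest p of each list, and 1 that the rule takes is not reported here. The genes and lists were chosen with earlier results of these data known.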

Additional observations from a re-analysis of the deposited data

Results flagged for a closer look

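Every value here is a difference of 2 progestin responses on the log2 scale that passed edgeR's adjusted threshold, so each was picked out because the response to progestin differed between groups. No explanation was weighed, and no group holds enough libraries to look for a single outlying one.

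For siCEBPA minus siControl, 11 genes were picked out, all with a lower response in siCEBPA cells. They were EIF2AK3 (-0.32), HSP90B1 (-0.27), DNAJB9 (-0.52), DNAJC3 (-0.23), PDIA4 (-0.37), PDIA6 (-0.28), P4HB (-0.27), SYVN1 (-0.31), EDEM1 (-0.39), EDEM2 (-0.33) and TRAM1 (-0.20). In untreated cells, these genes differed between siCEBPA and siControl libraries in both directions, for example HSP90B1 by 0.25 and EIF2AK3 by -0.29. The ICRF untreated means of these examples (1371 and 41.6 CPM) were near the siCEBPA ones (1368 and 40.5 CPM). Those of PDIA4, EDEM1, EDEM2 and TRAM1 were nearer the siControl means. The ICRF labels name no siRNA, and what sets these levels apart was not tested.

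For ICRF minus siControl, 29 genes were picked out. Among the sensors and transcription factors these were XBP1 (-0.36), ERN1 (0.32) and CREB3L2 (-1.40). The chaperones with a lower response in ICRF cells were SDF2L1 (-1.24), MANF (-0.63), DNAJB9 (-0.56), P4HB (-0.55), DNAJC3 (-0.53), PDIA4 (-0.46), PDIA6 (-0.44), CRELD2 (-0.42), HSP90B1 (-0.22), PDIA3 (-0.18), DNAJB11 (-0.17), HYOU1 (-0.17) and CANX (-0.14), and CALR had a higher one (0.14). Of the degradation factors SYVN1 (-1.23), EDEM1 (-0.49), EDEM2 (-0.36) and DERL2 (-0.25) had a lower response. HERPUD1 (0.61), EDEM3 (0.50), DERL1 (0.36), SEL1L (0.33) and OS9 (0.13) had a higher one. WFS1 (-1.62), SEC61B (-0.51) and SEC61A1 (-0.44) had a lower response in ICRF cells.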

How the results depend on the processing

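Of 3601 values of single genes recomputed under the alternatives, 3349 kept their direction and their side of the threshold (a sign change of a value past no threshold in either setting counts as kept), 138 lost the threshold, 104 passed it in the alternative alone, and 10 changed sign with a call in one of the settings. Called genes that kept their call in every setting numbered 28 of 32 for progestin in siControl cells, 18 of 26 in siCEBPA cells and 21 of 28 in ICRF cells, 17 of 25 and 28 of 30 for CEBPA siRNA without and with progestin, 5 of 11 for the siCEBPA difference and 21 of 29 for the ICRF difference. Among genes with a mean of at least 1 CPM, a larger share was called than among all genes in every comparison. For CEBPA siRNA 3808 of 13363 were higher and 3862 lower without hormone, and 3888 and 3677 with it. For the siCEBPA difference 768 were higher and 655 lower, and for the ICRF difference 4396 and 4173 of 13378. In these comparisons the group's share called was still the larger one.

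Without scaling factors the median of all genes shifted from -0.03 to -0.19 for progestin in siControl and in siCEBPA cells, and by upper quartile scaling to -0.15 and -0.16. For CEBPA siRNA untreated and with progestin and for the ICRF difference the medians without scaling factors became 0.10, 0.11 and 0.17. Without scaling factors the genes lower with progestin numbered 9 in siControl and 12 in siCEBPA cells, those lower with CEBPA siRNA untreated 10, those higher with it under progestin 7, and those with a higher ICRF response 11. The sign changed there for ATF6 (-0.14), DNAJC10 (-0.13), DERL1 (-0.036) and OS9 (-0.13) in siControl cells, for HSP90B1 (-0.10), DNAJB11 (-0.0097), PDIA3 (-0.11), OS9 (-0.11) and TRAM1 (-0.11) in siCEBPA cells, and for the ICRF difference of CANX (0.012).

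One gene had a higher response in siCEBPA cells (count of 1 in place of 0) with no filter beyond 1 count, with the replicate block, by DESeq2 and with all 12 libraries in the fit. Leaving out 1 library gave 3 to 5 genes lower with progestin in siControl cells, 3 without siControl untreated replicate 2 or siControl progestin replicate 1. It gave 0 to 1 higher and 5 to 14 lower for the siCEBPA difference. The lone library is then assumed to vary like the other groups.

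Replicate numbers are not stated to pair the libraries. Deviations of same-numbered libraries correlated from -0.041 to 0.557 between siRNA groups and at 0.078 between ICRF groups. With the replicate number as a block the siCEBPA difference had 20 genes lower and 1 higher, and the block moved no other count by more than 1.5 times. Total counts of 57364785 to 148624099 leave DERL3, at 8 to 28 counts, unresolved.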
